A study of Mus musculus with 2 samples.

Results

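The genes described here are molecular chaperones and their partners: the HSP70, HSP90 and HSP110 heat shock proteins, the J-proteins (DNAJA, DNAJB and DNAJC), the mitochondrial chaperonin HSP60 with HSP10, the cytosolic chaperonin CCT, the small heat shock proteins and the BAG proteins. They were chosen by gene symbol alone, as probe sets with a single symbol of one of these families in the platform annotation, without Hspa5, Dnajb9 and Dnajc3, which belong to the endoplasmic reticulum stress response. This gave 193 of the 45101 probe sets on the array, for 81 of 18194 named genes. The rule takes names and not location, so 9 of the 81 genes encode mitochondrial proteins and 10 encode proteins of the endoplasmic reticulum.

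Chaperones bind unfolded protein chains and help them to fold. HSP70 does so in a cycle driven by ATP: J-proteins deliver the substrate and start ATP hydrolysis, and HSP110 and BAG proteins exchange the nucleotide so that the substrate is released. CCT folds actin and tubulin in a closed chamber, HSP60 and HSP10 form such a chamber in mitochondria, and small heat shock proteins hold unfolded proteins without ATP. Heat shock factor HSF1 switches on many of these genes when unfolded protein accumulates. In kidney, ischemia is known to induce HSP70 and the small heat shock protein HSP25, the product of Hspb1, in the tubules.

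The study compared 2 pools of kidney tissue, with 1 array each. The EST KO AKI pool held 124 mg of kidney from 6 male mice labelled C57BL/6 that lack estrogen sulfotransferase (EST), the enzyme that inactivates estrogens by attaching sulfate. The WT AKI pool held 180 mg of kidney from 3 male wild-type C57BL/6 mice, 8 weeks old; the labels state no separate age for the EST KO mice. AKI is acute kidney injury: both pools came from mice killed 24 h after 30 min of warm ischemia of both kidneys and reperfusion, so nothing here compares injured with uninjured kidney. How the gene was disrupted is not given in the sources used here, and 1 protocol field calls the EST KO tissue liver where the other fields call it kidney.

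Levels are linear intensities, which cannot be compared between genes. A gene was read from its brightest probe set and counts as measured when either pool exceeded background, a level taken from probe sets of odorant and taste receptors and other genes with little kidney expression. Background was 638.3 in the EST KO pool and 676.1 in the WT pool. By this rule 51 of the 81 chaperone genes were measured, and 7480 genes in all. Values below background were raised to it, so a fold against them is a lower bound, written "at least". With 1 array per genotype there is no test and no spread between mice, and precision is limited by having 2 arrays. The only error that can be read from the data is that between probe sets of 1 gene. Where both arrays read a gene above background at 2 probe sets, which held for 1663 genes, the log2 ratios of the pair differed with an SD of 0.39. Sult1e1, which encodes EST, read 17.2 in the EST KO pool and 472.7 in the WT pool, both below background, so its loss cannot be checked by a fold. Of 11 liver markers on the array 6 lay below background in both pools, Apoa1, Ahsg and Alb (522.3 in the EST KO pool and 487.9 in the WT pool) among them. Of all 18194 named genes, 7480 were measured. The other 5 liver markers were measured, 3 higher and 2 lower in the EST KO pool. Ttr read 11956.7 in the EST KO pool and 1716.4 in the WT pool, Apoh 874.7 and 861.6, and Cyp3a11 691.5 and 556.2. Fgb read 7.5 and 1284.4, and Serpina1c 488.6 and 851.7, in the same order. All 23 proximal tubule markers on the array exceeded background in the EST KO pool.

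Heat shock genes carry in their promoters the element that HSF1 binds, alternating blocks of GAA and TTC with 2 bases between neighbours. The promoters of members were therefore searched for 3 such blocks (GAANNTTCNNGAA or TTCNNGAANNTTC, which together cover both strands) and for 2 (GAANNTTC or TTCNNGAA, each its own reverse complement). The sequences are RefSeq's, on GRCm38.p6, from 250 bases before to 50 after a transcription start, and 66 of the 81 genes had one. Among the 51 measured genes 38 had one. The others, Dnajc12 and Hspa8 among them, were not searched. Stretches from base -150 to base 30 from the start are shown for 6 genes, because they hold the 3-block element (Hspe1, Hsph1, Dnajb6) or hold 2 blocks and belong to the genes furthest apart between the pools (Hspa1a, Dnaja1, Hspb1). Not shown are Hspd1, which holds the same 3-block bases as Hspe1, and Hspa1b, which holds 2 blocks and is further apart than Hspb1. Capitals mark the matched blocks with the bases between them.
Hspe1, chr1:55087998-55088177, plus strand: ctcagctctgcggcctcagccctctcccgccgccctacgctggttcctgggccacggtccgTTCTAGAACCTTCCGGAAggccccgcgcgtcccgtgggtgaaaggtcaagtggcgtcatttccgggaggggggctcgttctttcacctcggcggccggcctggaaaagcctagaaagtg
Hsph1, chr5:149636286-149636465, minus strand: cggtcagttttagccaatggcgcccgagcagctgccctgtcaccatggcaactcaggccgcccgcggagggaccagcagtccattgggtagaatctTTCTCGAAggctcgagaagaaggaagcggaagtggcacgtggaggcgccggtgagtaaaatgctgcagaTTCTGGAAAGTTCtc
Dnajb6, chr5:29735748-29735927, plus strand: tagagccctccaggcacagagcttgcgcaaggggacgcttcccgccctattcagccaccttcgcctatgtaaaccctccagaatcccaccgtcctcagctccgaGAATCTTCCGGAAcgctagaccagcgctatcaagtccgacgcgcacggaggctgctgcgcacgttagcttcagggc
Hspa1a, chr17:34972127-34972306, minus strand: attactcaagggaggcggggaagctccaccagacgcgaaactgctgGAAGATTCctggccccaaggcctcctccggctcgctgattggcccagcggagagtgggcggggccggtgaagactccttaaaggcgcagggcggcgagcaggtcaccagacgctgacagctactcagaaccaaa
Dnaja1, chr4:40722318-40722497, plus strand: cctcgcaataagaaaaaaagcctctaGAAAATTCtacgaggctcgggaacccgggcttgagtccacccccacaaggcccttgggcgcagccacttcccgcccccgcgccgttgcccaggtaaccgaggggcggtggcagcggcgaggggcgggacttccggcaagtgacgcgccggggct
Hspb1, chr5:135887769-135887948, plus strand: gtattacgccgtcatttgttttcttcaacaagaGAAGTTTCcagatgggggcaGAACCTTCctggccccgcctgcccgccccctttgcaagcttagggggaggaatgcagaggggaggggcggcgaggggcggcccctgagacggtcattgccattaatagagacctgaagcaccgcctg

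In the EST KO pool, 4 of 5 measured HSP70 genes and all 4 J-proteins of the A class were higher, no measured CCT subunit differed by 1.5-fold, and the small heat shock protein gene Hspb1 was lower. In EST KO kidneys 29 of the 51 measured genes read higher (56.9%), 21 were lower, and 1, Dnajc4, had no order, since its level in the EST KO pool lay above background there but below the WT pool's background. Of all measured genes, 43.6% were higher. As log2 ratios of EST KO over WT, the median was 0.09 for the chaperone genes and -0.05 for all measured genes. At least 2-fold higher were 3 members, Dnajc12, Hspe1 and Hspa1a, against a background of 3.02% of all measured genes, and none was at least 2-fold lower (background 1.4%). At least 1.5-fold higher were 9 members (background 8.46%) and 2 were at least 1.5-fold lower (background 7.43%). These counts describe 2 arrays, and no test stands behind them.

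**Figure D1:**
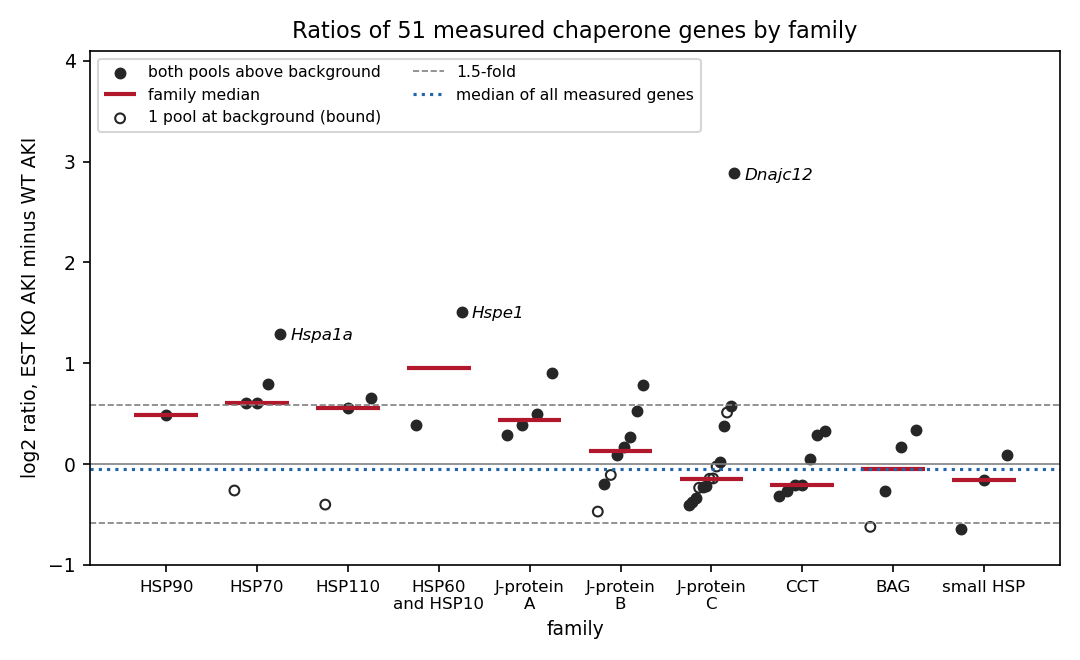
Log2 ratio of each measured chaperone gene (y axis, EST KO AKI minus WT AKI, 1 array each) by family (x axis). Filled points are above background in both pools and open points are bounds; red bars are family medians, dashed lines mark 1.5-fold and the dotted line is the median of all measured genes, -0.05. The points of HSP90 and J-protein A all lie above 0, and CCT and BAG lie on both sides of it.

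Both inducible HSP70 genes were at least 1.5-fold higher. Hspa1a, which encodes the stress-inducible HSP70, read 2957.8 in the EST KO pool and 1209.2 in the WT pool, 2.45-fold higher at its only probe set. Its twin Hspa1b read 6265.7 in the EST KO pool and 3609.2 in the WT pool, 1.74-fold higher. All of the 3 probe sets of Hspa1b went the same way, with log2 ratios of 0.80, 0.65 and 0.60. Hspa1a and Hspa1b encode near-identical proteins, and 98.7% of the bases in their promoter windows match. By their design names, the probe set of Hspa1a and 2 of the 3 of Hspa1b read a single gene, and those 2 were 1.74-fold and 1.57-fold higher. The probe sequences were not compared here.

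Hspa8, the constitutive HSP70 of the cytosol, read 17703.3 in the EST KO pool and 11667.6 in the WT pool, 1.52-fold higher. Its other 2 probe sets above background were 1.59-fold and 1.99-fold higher. By their design names, the 1.99-fold probe set reads transcripts of a single gene, and the other 2 can also read other genes. Hspa9, the mitochondrial HSP70 that pulls proteins through the inner membrane, read 6156.0 in the EST KO pool and 4047.3 in the WT pool, 1.52-fold higher. Its next brightest probe set gave 1.18-fold (5146.2 in the EST KO pool and 4362.3 in the WT pool), and the one after that 1.34-fold. By their design names, the 1.52-fold probe set of Hspa9 can also read other genes, and the other 2 read a single gene. The size for Hspa9 thus depends on the probe set, and neither single-gene probe set reached 1.5-fold. Hspa13, an HSP70 of the endoplasmic reticulum, read 465.1 in the EST KO pool, below background, and 765.3 in the WT pool, at least 1.20-fold lower. Of the 10 HSP70 genes taken by the rule, 5 were measured, and their median log2 ratio was 0.61.

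The HSP110 genes, which exchange the nucleotide of HSP70, lay on both sides. Hsph1 read 2296.6 in the EST KO pool and 1453.4 in the WT pool, 1.58-fold higher, and its second probe set gave 1.60-fold. Hspa4 read 1271.3 in the EST KO pool and 862.3 in the WT pool, 1.47-fold higher, just short of 1.5-fold. Hspa4l read 497.9 in the EST KO pool, below background, and 843.2 in the WT pool, at least 1.32-fold lower.

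Hsp90aa1, the inducible HSP90 that matures kinases and steroid receptors, read 8942.5 in the EST KO pool and 6364.4 in the WT pool, 1.41-fold higher. Its other 2 probe sets above background were 1.48-fold and 1.57-fold higher. All 3 readings of Hsp90aa1 were higher, and 1 of them passed 1.5-fold.

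The mitochondrial chaperonin showed unequal differences for its partners. Hspe1, which encodes the lid HSP10, read 4851.1 in the EST KO pool and 1700.6 in the WT pool, 2.85-fold higher, and its second probe set was 2.18-fold higher (1950.8 and 893.2 in the same order). The brightest probe set of Hspe1 can, by its design name, also read other genes, and the second reads a single gene. Hspd1, which encodes the barrel HSP60, read 13482.3 in the EST KO pool and 10274.1 in the WT pool, 1.31-fold higher at its only probe set. The genes lie head to head: the promoter windows of Hspe1 and Hspd1, on opposite strands, share 285 bases.

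**Figure D2:**
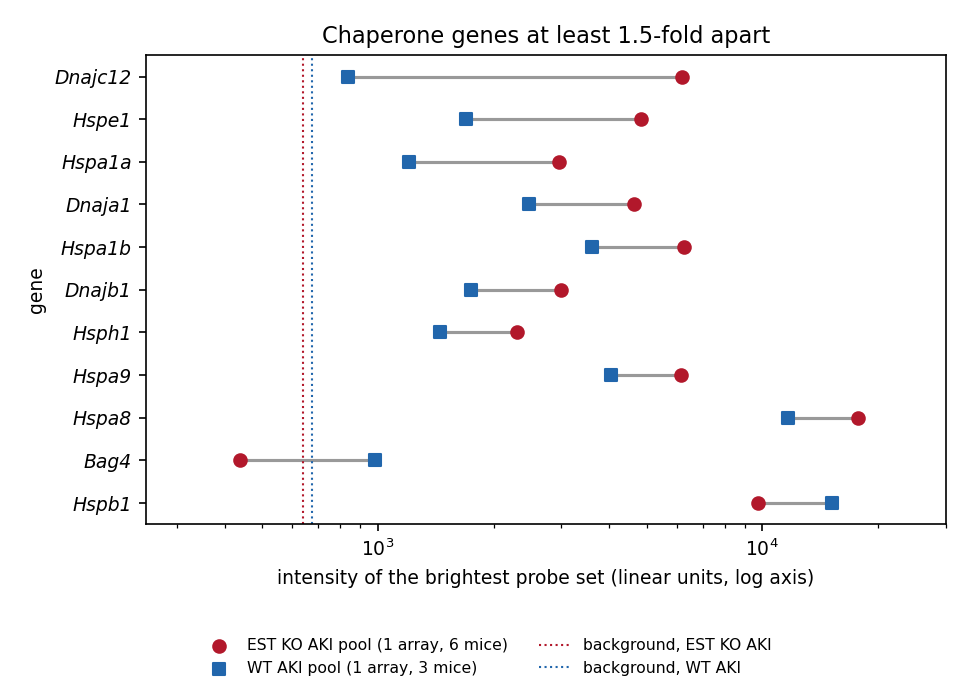
Intensity of the brightest probe set (x axis, linear units on a log axis) of the 11 chaperone genes at least 1.5-fold apart, in the EST KO AKI pool (red circles) and the WT AKI pool (blue squares), with each pool's background as a dotted line. For 9 genes the circle lies to the right of the square; for Bag4 and Hspb1 it lies to the left, and the Bag4 circle lies below background.

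All 4 J-proteins of the A class, which feed unfolded chains to HSP70, read higher in EST KO kidneys. Dnaja1 read 4638.2 in the EST KO pool and 2479.8 in the WT pool, 1.87-fold higher, and its other 2 probe sets were 2.09-fold and 3.06-fold higher. Dnaja2 was 1.41-fold higher (EST KO pool 6791.7, WT pool 4803.5), but 1.09-fold at its next brightest probe set. The brightest probe set of Dnaja2 can, by its design name, also read other genes, and the next reads a single gene. Dnaja4 (1147.1 and 879.0, in the same order) was 1.31-fold higher and the mitochondrial Dnaja3 (1253.8 and 1029.0) 1.22-fold higher. The median log2 ratio of these 4 genes was 0.44.

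Of the 12 J-proteins of the B class taken by the rule, 8 were measured, 5 higher and 3 lower in the EST KO pool. Dnajb1, the classical HSP40 and partner of inducible HSP70, read 2997.6 in the EST KO pool and 1743.2 in the WT pool, 1.72-fold higher, with its second probe set at 1.46-fold. Dnajb6, which holds back aggregation of polyglutamine proteins, differed between probe sets: the brightest was 1.44-fold higher (2194.3 and 1523.4 in the same order), and the next was at 0.99 times the WT level (1493.6 and 1507.2). The probe sets of Dnajb6 thus give it no settled direction. Dnajb12, a J-protein of the endoplasmic reticulum membrane, was 1.21-fold higher, Dnajb4 1.13-fold and Dnajb11, a partner of BiP, 1.06-fold. Dnajb2 (607.4, below background, in the EST KO pool and 884.6 in the WT pool) was at least 1.39-fold lower, Dnajb5 1.15-fold lower and Dnajb8, also below background in the EST KO pool, at least 1.08-fold lower.

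The C class, whose members share little but the J-domain, held the largest difference of the 51 genes. Dnajc12, which in humans is the co-chaperone of the aromatic amino acid hydroxylases, read 6167.0 in the EST KO pool and 835.3 in the WT pool, 7.38-fold higher. It ranked 2 among the log2 ratios of all 7480 measured genes, and rests on 1 probe set. Of 26 genes of the class taken by the rule 14 were measured: 5 were higher, Dnajc12 among them, 8 were lower, 3 of these only as bounds, and 1 was without an order. Their median log2 ratio was -0.14, beside -0.05 for all measured genes, of which 43.6% were higher.

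Dnajc15, an inner mitochondrial membrane protein that restrains respiration, read 2514.1 in the EST KO pool and 1688.6 in the WT pool, 1.49-fold higher. Dnajc22 was at least 1.43-fold higher (EST KO pool 964.0, WT pool 653.6 and below background), and at least 1.09-fold at its other probe set, the one that by its design name reads a single gene. Dnajc5, the cysteine string protein of secretory vesicles, was 1.30-fold higher (3691.2 and 2846.0 in the same order) with its other 3 probe sets above background on the same side. Among those lower in the EST KO pool, Dnajc14 was 1.33-fold lower, the ribosome-bound Dnajc2 1.30-fold, the endoplasmic reticulum reductase Dnajc10 1.26-fold, and Dnajc8 and Dnajc7 1.17-fold each. Below background in EST KO kidneys were Dnajc11, at least 1.18-fold lower, Dnajc30, at least 1.11-fold lower, and Dnajc18, at least 1.10-fold lower. Dnajc13, which acts on endosomes, differed by 1.01-fold, and Dnajc4 (665.1 in the EST KO pool and 637.7 in the WT pool) had no order.

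Of the CCT chaperonin, 3 measured subunits were higher and 4 lower. The log2 ratios of its 7 measured subunits ran from -0.31 to 0.33, with a median of -0.20. Cct8 (1452.3 in the EST KO pool and 1153.8 in the WT pool) was 1.26-fold higher, Cct2 (5556.3 and 4544.5) 1.22-fold and Cct3 (11186.7 and 10822.7) 1.03-fold. Cct7 (1743.9 and 2169.1) was 1.24-fold lower, Cct5 (2871.7 and 3445.1) 1.20-fold, Cct6a (5348.6 and 6189.9) 1.16-fold and Cct4 (3338.8 and 3844.4) 1.15-fold. Tcp1, the remaining subunit of the same ring and no member by name, was 1.30-fold lower (3378.3 and 4396.8). None of these differences reached 1.5-fold. The second probe set of Cct6a lay on the other side (log2 0.04), as did 2 of the 3 other probe sets of Cct3 above background in both pools.

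Hspb1, which encodes HSP25, read 9737.1 in the EST KO pool, against 15165.6 in the WT pool, 1.56-fold lower. Its second probe set was 1.59-fold lower (5182.0 and 8248.1, in the same order). Hspb6 (1127.0 and 1059.9) was 1.06-fold higher and Hspb7 (665.0 and 741.0) 1.11-fold lower, and the other 5 small heat shock protein genes lay below background in both pools. Cryab, a small heat shock protein whose symbol the rule does not cover, was 2.51-fold lower (1866.9 in the EST KO pool and 4679.1 in the WT pool). Muscle also expresses Hspb6, Hspb7 and Cryab. Of 14 smooth and striated muscle markers 11 lay below background in both pools. Of the 3 measured, 2 were lower in the EST KO pool and 1 had no order, with a median log2 ratio of -0.50. The part of muscle in these values was not tested.

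BAG proteins, which bind HSP70 and exchange its nucleotide, lay on both sides. Bag2, which inhibits the ligase CHIP, was 1.27-fold higher (EST KO pool 1878.1, WT pool 1483.3), and Bag1 1.13-fold (3523.5 and 3125.2). Bag3, which steers aggregates to autophagy, was 1.20-fold lower (1288.2 and 1547.1). Bag4, which silences death receptors, read 437.9 in the EST KO pool, below background, and 982.8 in the WT pool, at least 1.54-fold lower. Its other 2 probe sets lay below background in both pools.

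For 20 chaperone genes, 2 or more probe sets exceeded background on both arrays. The brightest and the next brightest gave the same direction for 18 of them, all but Dnajb6 and Cct6a. The log2 ratios within a pair differed with an SD of 0.22 over these 20 genes. Of the 11 genes at least 1.5-fold apart, Dnajc12 and Hspa1a have a single probe set and Bag4 has only 1 above background.

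**Figure D3:**
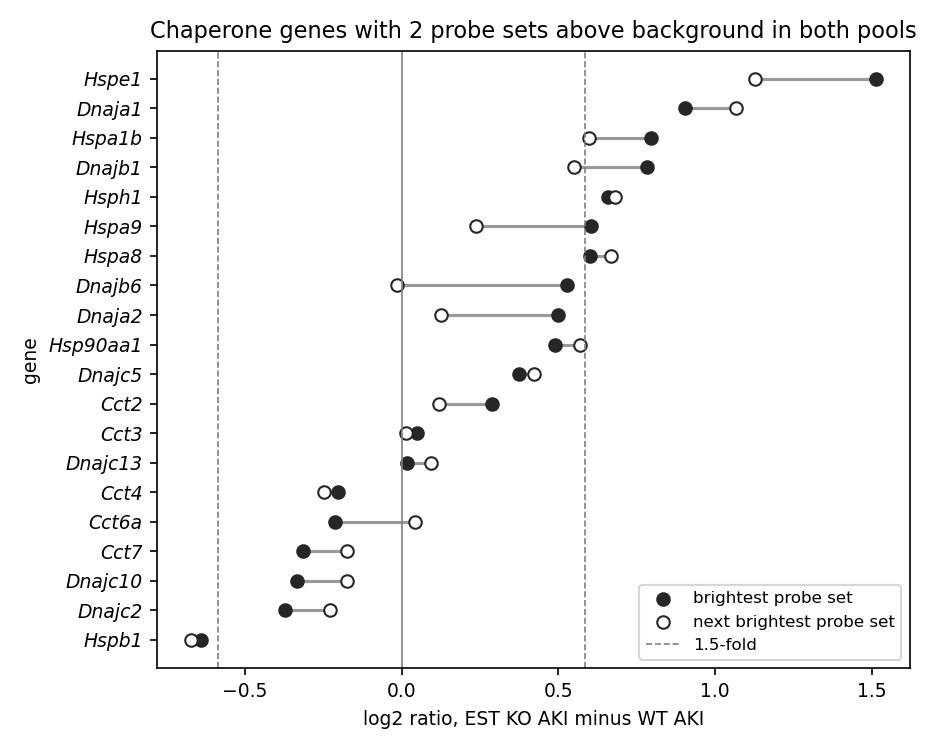
Log2 ratio (x axis, EST KO AKI minus WT AKI) at the brightest (filled) and the next brightest (open) probe set of the 20 chaperone genes for which both exceed background on each array; dashed lines mark 1.5-fold. Both points of Hspe1, Dnaja1, Hspa1b, Hsph1 and Hspa8 lie beyond 1.5-fold on the higher side and both points of Hspb1 on the lower side, while those of Hspa9 and Dnajb1 straddle the line.

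By place in the cell, the mitochondrial members had the highest median. Of 8 measured genes 5 were higher (62.5%) and 2 lower in the EST KO pool, with a median log2 ratio of 0.34. Among all measured chaperone genes 56.9% were higher, and among all measured genes 43.6%. The 37 genes placed in the cytosol, nucleus or vesicles had a median of 0.09, and the 6 of the endoplasmic reticulum a median of -0.03. All 3 groups had members on both sides of 0.

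The element of 3 blocks was found in 198 of 32851 promoter windows (0.603%). Counted by gene it was held by 4 of the 66 chaperone genes with a window (6.06%), Hspe1, Hspd1, Hsph1 and Dnajb6, and by 0.662% of all genes with a window. In the stretch shown for Hspe1, 2 overlapping matches run from base -89 to base -72 before its start, and the same bases lie at -144 to -127 from a start of Hspd1 on the other strand. In Hsph1 the 3-block match lies at 16 to 28 after the start shown, and in Dnajb6 at -46 to -34. At their brightest probe set these 4 were higher in EST KO kidneys, with log2 ratios of 1.51 for Hspe1, 0.39 for Hspd1, 0.66 for Hsph1 and 0.53 for Dnajb6. Hspe1 and Hspd1 are not separate cases, since they share the same matched bases. The next probe set of Dnajb6 was not higher (log2 ratio -0.01). Among measured genes outside the families with the same element, 11 of 31 were higher, with a median log2 ratio of -0.13.

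Blocks of 2 stood in 15.1% of all windows. By gene, 21 of the 66 chaperone genes held them (31.8%), and 17% of all genes. Of the 16 that were measured, 11 were higher and 5 lower in the EST KO pool. Among all 51 measured chaperone genes 56.9% were higher, and among all measured genes 43.6%. The 16 include the 4 genes with 3 blocks, since 3 blocks contain 2, and these 4 were all higher at their brightest probe set. The 830 measured genes with 2 blocks, these 16 included, had a median log2 ratio of -0.06. Hspa1a and Hspa1b hold 1 each at -104 to -97, and Dnaja1 holds 1 at -124 to -117. Hspb1, which was lower in the EST KO pool, holds 2, at -117 to -110 and -97 to -90. A match is a run of letters and not a bound site.

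**Figure D4:**
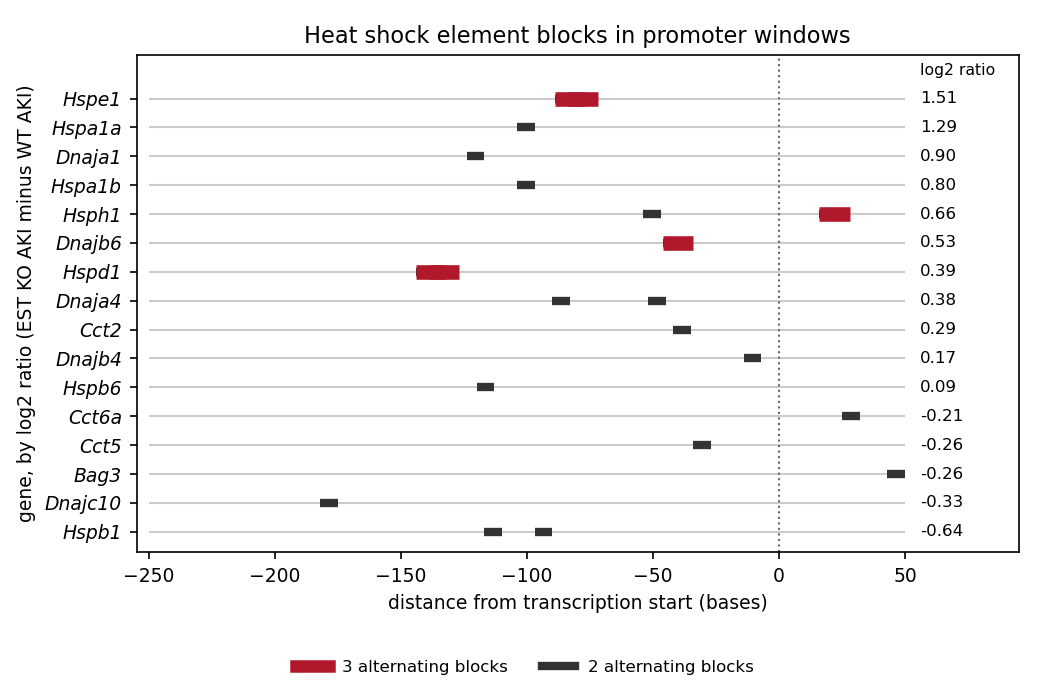
Position (x axis, bases from the transcription start) of 3 alternating blocks (red) and 2 alternating blocks (dark) in the promoter windows of the 16 measured chaperone genes that hold any, ordered by log2 ratio (EST KO AKI minus WT AKI, printed at right), with the window of lowest coordinate for each gene. Red marks stand at Hspe1, Hsph1, Dnajb6 and Hspd1, all with ratios above 0 at the brightest probe set, and dark marks at genes on both sides of 0. Those of Hspe1 and Hspd1 are the same bases.

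Lists of partner genes had medians between -0.15 and 0.09, beside -0.05 for all measured genes. Of 20 measured HSP90 co-chaperones 8 were higher and 11 lower in the EST KO pool, with a median log2 ratio of -0.07. Aarsd1 was at least 1.58-fold higher; Nudcd3 was 1.72-fold lower, Pih1d1 1.40-fold, Ruvbl2 1.39-fold and Cdc37l1 1.28-fold. Stip1, the adaptor that hands substrates from HSP70 to HSP90, was 1.28-fold lower. Of 13 measured HSP70 partners 5 were higher, with a median of -0.15. St13, which stabilises HSP70 with its substrate bound, was 1.92-fold higher (EST KO pool 3344.4, WT pool 1737.5). Grpel1, a nucleotide exchanger of mitochondrial Hspa9, was 1.58-fold higher, while Grpel2 was 1.31-fold lower (1659.2 and 2178.1, in the same order). Ubqln4 and Ubqln2, shuttles to the proteasome, were 1.55-fold and 1.48-fold lower.

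Of prefoldin and other partners of CCT, 6 of 13 measured genes were higher, with a median of -0.13. Tbcd, a tubulin cofactor, was 1.58-fold higher, while the prefoldin subunit Pfdn6 was at least 2-fold lower, alone in this list (1491.5 in the EST KO pool and 2984.0 in the WT pool). Pdcl3 and Txndc9, which bind CCT, were 1.55-fold and 1.52-fold lower. Of 9 measured genes of mitochondrial folding and proteolysis 6 were higher, with a median of 0.09: Clpx, the unfoldase of a matrix protease, was 2.77-fold higher (2250.9 and 812.9, in the same order), Pmpcb, a subunit of the peptidase that trims imported proteins, 2.33-fold, and Trap1, the mitochondrial HSP90, 1.59-fold.

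Of other genes known to respond to heat shock 4 were higher and 9 lower of 13 measured, and their median log2 ratio, -0.05, was that of all measured genes. Atf3 was at least 3.15-fold higher (EST KO pool 2132.9, WT pool 260.2 and below background). Hmox1, heme oxygenase, was just under 2-fold higher (9930.4 and 4966.7, in the same order). Cryab, Tcp1 and Stip1, which also belong to this list, were 2.51-fold, 1.30-fold and 1.28-fold lower. Hsf1, the gene of HSF1, had no probe set carrying its symbol alone, so its level was not read. Hsf2, a heat shock factor, lay below background in both pools (522.0 and 542.4), and Hsbp1, which binds HSF1, was 1.21-fold higher.

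Markers of cell types differed too. All 23 measured proximal tubule markers were higher in the EST KO pool, with a median log2 ratio of 0.75 and a summed level of 251185, against 144768 in the WT pool. A summed level weighs the brightest probe sets most and does not measure the amount of a cell type. Of 16 measured tubular injury markers 13 were lower, with a median of -0.97 and a summed level over the 18 on the array of 76807 in the EST KO pool, against 139774 in the WT pool. All 11 measured endothelial markers (median -0.32) and 7 of 8 measured leukocyte markers (median -0.35) were lower, as were 4 of 6 measured fibroblast markers (median -0.35). Of 14 measured markers of the loop, distal tubule and collecting duct 7 were higher and 6 lower (median 0.01). The part of these shifts in the chaperone values was not tested, and in bulk tissue fewer cells of a type and less RNA per cell cannot be told apart.

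The 30 chaperone genes below background in both pools were given no fold. The highest reading among them was 613.6 in the EST KO pool, of Dnajb13, and 627.4 in the WT pool, of Dnajc28. They include Hspa2, Hspa12a, Hspa14, Hspb8, Bag5 and Bag6, and the germ cell genes Dnajb3 and Hspa1l. All their probe sets lay below background, which does not show that they are silent.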

How the data were processed

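The authors' deposited values were intensity values on a linear scale, 1 per probe set and array, for 45101 probe sets on 2 arrays. From the values, each array had been scaled to a mean of 500 with the lowest and highest 2% dropped; the summarising software is not given in the sources used here. Per the labels' protocols, total RNA was isolated with Trizol. Probe sets were named from the platform annotation (34958 with 1 symbol), and updated against RefSeq GRCm38.p6, which matched 34754. Each gene was read from its brightest probe set. Background was the 95th percentile of 129 probe sets of olfactory, vomeronasal, taste receptor and keratin-associated genes; values below it were set to it before log2. Python 3.11.15, pandas 2.3.3 and statsmodels 0.14.6 were used, and the ratio step was tested on simulated data. The array number limits precision.

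The members, lists and alternatives were chosen with earlier results of these data known. Any measured member could be named. Of each partner list, up to 5 measured genes with the largest ratios in either direction could be named, and Hsf1, Hsf2 and Tcp1 whatever they read. Ttr, the other measured liver markers and the prefoldin subunits Vbp1, Pfdn2, Pfdn4 and Pfdn5 were named after their values were seen. The alternatives changed background, floor, pseudocount, scaling, the choice of probe set and the filter.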

Additional observations from a re-analysis of the deposited data

How the results depend on the processing

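Under 12 alternatives, 1 of them chosen after seeing the data, 47 of the 51 measured genes kept their direction wherever they had a value (all but Cct3, Cct6a, Dnajb6 and Dnajc4), and so did all 11 genes at least 1.5-fold apart, of which 7 stayed at least 1.5-fold apart throughout. Those that came under 1.5-fold somewhere were Hspa8 (lowest log2 ratio 0.45), Hspa9 (0.24), Dnajb1 (0.55) and Bag4 (-0.53). Hspe1, Hspa1a and Dnajc12 stayed at least 2-fold higher under every alternative. For Hspa1a and Dnajc12, with 1 probe set each, above background in both pools, only the pseudocount and the scaling could change the ratio. Many other genes likewise have no second probe set above background, so part of the agreement in these counts was fixed in advance. With background at the 75th percentile, 1 member was at least 2-fold lower, 5 were at least 1.5-fold lower, and the members' median log2 ratio was 0.026. With no floor, 1 was at least 2-fold and 4 at least 1.5-fold lower. Only 1 was at least 1.5-fold lower after centring on the median gene, after quantile normalization, with the trend removed, with probe sets named for several transcripts or genes left out (41 of the 51 members then have a value, Hspa8, Hspb1 and Hsph1 not among them), and among genes above background in both pools. The members' median was 0.14 after centring and 0.29 among genes above background in both pools. With only probe sets that can read other genes left out, the alternative added later, 50 members have a value, 8 were at least 1.5-fold higher and 2 lower, Hspe1 had a log2 ratio of 1.13 and Hspa8 of 0.99, and the HSP70 median was 0.80. The count at least 1.5-fold higher, 9 as reported, ran from 6 with the several-transcript probe sets left out to 11 after centring, and the count at least 2-fold higher was 4 with the mean of probe sets and with the second brightest, Dnaja1 being added. The CCT median was -0.37 after quantile normalization and 0.015 with the second brightest probe set, so CCT has no settled direction. The log2 ratio of Dnaja1 was 1.20 with the mean of its probe sets. The cause of these changes was not tested. No scaling moved the median of all genes by over 0.1. No paired analysis was possible because each genotype has 1 array. Intensities near background limit the low genes, and spread between mice cannot be measured.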
